A study of Mus musculus with 61 samples.

Results

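The genes described here encode the subunits of voltage-gated sodium, calcium and potassium channels, together with the inward rectifier, two-pore and calcium-activated potassium channels and the auxiliary subunits that carry the same symbols. They were chosen by name and level: protein-coding genes with a mouse GENCODE symbol of the form Scn, Cacn (alpha1, alpha2delta, beta or gamma) or Kcn, and at least 1 TPM (a transcript level corrected for length and for the total of its library) in 2 libraries. Of 132 genes with such a symbol 114 met that level, 13 of 14 sodium, 22 of 26 calcium and 79 of 92 potassium channel genes. They stood among 18655 genes that met the same level in a table of 43346. Those below it were Scn4a, Cacna1f, Cacna1s, Cacna2d4, Cacng6, Kcna7, Kcna10, Kcne1, Kcng3, Kcng4, Kcnj1, Kcnj15, Kcnk7, Kcnk15, Kcnk18, Kcnmb1, Kcnmb3 and Kcnv2. Just outside, the second-highest library held 0.92 TPM of Kcne1 and 0.87 TPM of Cacna2d4, and just inside 1.07 TPM of Kcnk13 and of Kcnj14. The level was met within the brain libraries by 113 genes and within the liver libraries by 33. It was met by 85 genes in the early, 99 in the middle and 110 in the late brain libraries, so a gene that met it only late had to be higher there.

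In an excitable cell the alpha subunit of a sodium channel opens when the membrane depolarizes and starts the action potential, potassium channels repolarize the membrane and set its resting voltage, and calcium channels turn the voltage into calcium entry that drives transmitter release and gene activity. Beta, alpha2delta, KChIP and similar auxiliary subunits bind the pore-forming subunit and tune its gating or its delivery to the membrane. Neurons acquire this set of proteins as they leave the cell cycle and mature, whereas glia, epithelia and blood cells use a few potassium channels for ion transport and volume control.

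RNA from fetal mouse tissue was sequenced at embryonic days E10.5, E11.5, E12.5, E13.5, E14.5, E15.5 and E16.5 and at P0 (the day of birth) in forebrain (15 libraries), midbrain (16) and hindbrain (16), and from E11.5 in liver (14). The labels name no strain, treatment or genetic change and do not say how many embryos a library holds. The 61 libraries formed 31 groups, 30 of 2 libraries and 1 (forebrain E10.5) of 1. The stages were joined into an early window (E10.5 and E11.5, 11 brain libraries; in liver E11.5 alone), a middle window (E13.5 and E14.5, 12) and a late window (E16.5 and P0, 12).

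The read depth behind each library is unknown, and in each library 46 to 102 of the channel genes in the brain and 10 to 31 in liver reached 1 TPM. The windows left out E15.5, where the libraries labelled midbrain held 87.6 and 78.0 TPM of the hindbrain gene Hoxb3 and those labelled hindbrain 0.15 and 0.24 TPM, and E12.5, whose brain libraries held 3.64 to 112 TPM of the liver transcript Alb. The brain libraries kept in the windows were not free of it and held 0 to 28.4 TPM. For 4 midbrain and hindbrain columns the header and the title exchanged E16.5 and P0, which are in the same window. The first hindbrain E16.5 library held 330 TPM of a list of 7 skeletal muscle genes. Separate animals are not stated for the replicates, so p-values measure the spread between these libraries. The 6 neuron markers summed to 387 to 2234 TPM in early, 2782 to 4655 in middle and 4099 to 5746 in late brain libraries, and to at most 12.6 TPM in liver.

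Channel genes as a group were higher in late than in early brain. Their summed level was 581 ± 138 TPM in the 11 early, 1455 ± 335 in the 12 middle and 2120 ± 319 in the 12 late brain libraries (mean ± SD), while in liver it was 188, 88.5 ± 14.6 and 72.1 ± 15.7 TPM in the early, middle and late windows (n = 2, 4 and 4). In brain the sodium channel genes summed to 47.5, 215 and 338 TPM in the early, middle and late windows, the calcium channel genes to 339, 687 and 890 TPM, and the potassium channel genes to 195, 553 and 892 TPM. The lowest late brain library held 1480 TPM and the highest early one 825 TPM. In tissue RNA, fewer cells of a type and less RNA per cell cannot be told apart. The neuron markers given above moved with these sums, and their part in the result was not tested.

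**Figure D1:**
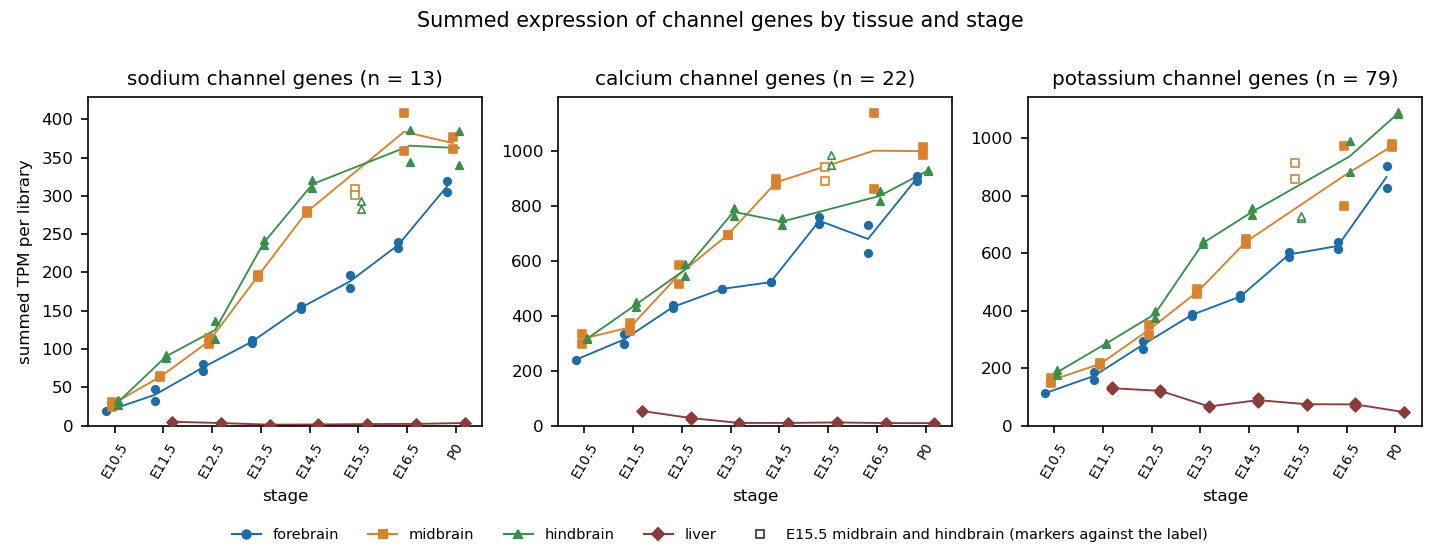
Summed TPM of the channel genes against stage, in 3 panels for the 13 sodium, 22 calcium and 79 potassium channel genes, with 1 point per library and lines through the stage means of forebrain, midbrain, hindbrain and liver. Open symbols mark the midbrain and hindbrain E15.5 libraries, which are left off the lines. Late brain libraries average 338, 890 and 892 TPM in the 3 panels and late liver libraries 2.77, 8.96 and 60.3 TPM.

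Changes were measured with limma on log2(TPM + 1), a scale that understates changes of genes at low levels, and a gene was called when its adjusted p was below 0.05 and its log2 change at least 1 in size. Between late and early brain, 83 of the 114 genes were called higher and 2 lower. The background shares over all tested genes were 18.7% higher and 9.44% lower. In 78 genes every late library lay above every early one, as in 21.3% of all tested genes. The median log2 change was 1.79 over the channel genes and 0.09 over all tested genes. Within single regions the counts were 82 higher and 2 lower in forebrain (background 19.5% and 9.62%), 79 and 2 in midbrain (19.6% and 10.8%), and 78 and 2 in hindbrain (18.2% and 9.56%). Quantile normalization moved the median over all genes by more than 0.1 in several of these comparisons, to -0.08 over the 3 regions and to -0.06 in forebrain (against 0.12), and left 73 channel genes higher and 2 lower over the 3 regions. Of the calls, 67 genes were called higher in all 3 regions, 15 in 2 of them and 8 in 1 (background 14%, 4.8% and 5.69%).

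Sodium channels. The alpha subunits of central neurons, Scn1a, Scn2a, Scn3a and Scn8a, were all called higher in late brain, as was Scn9a, which is best known from peripheral sensory neurons. Scn2a (ENSMUSG00000075318.8, mm10 chromosome 2, 65620771 to 65767447) ran from 24.8 to 66.9 TPM (median 51.9) in late and from 0.42 to 6.37 TPM (median 1.46) in early brain libraries, without overlap. Its log2 change of 4.13 ± 0.06 (SE, n = 12 and 11; limma, adjusted p = 3.25e-36) was the third of all 114 genes. Scn3a (chromosome 2, 65457118 to 65567627), the alpha subunit known from fetal brain, ran from 2.06 to 36.5 TPM (median 10.1) in the early, from 32.6 to 80.3 TPM (median 58.2) in the middle and from 41.1 to 82.7 TPM (median 53.4) in the late window. It was called higher late than early at 2.29 ± 0.07, and nearly all of that difference lay before the middle window.

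Scn1a (chromosome 2, 66270778 to 66440840), whose channel is prominent in inhibitory neurons, ran from 8.32 to 26.1 TPM (median 14.1) in late and from 0.44 to 2.20 TPM (median 1.14) in early libraries (2.94 ± 0.06). Scn9a (chromosome 2, 66480080 to 66634962) ran from 5.21 to 15.8 TPM late and from 0.27 to 5.68 TPM early, with overlap (2.11 ± 0.05). Scn8a (chromosome 15, 100869858 to 101045938), the main alpha subunit of mature axon initial segments, was already present early, at 4.55 to 9.22 TPM, and ran from 11.6 to 26.2 TPM late. Its change of 1.07 ± 0.05 lay close to the threshold and was 0.99 under median-of-ratios scaling and 0.79 under quantile normalization, neither of them called.

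Scn7a, an atypical sodium-sensing member, and Scn10a, of nociceptors, were not called (0.21 ± 0.08 and 0.17 ± 0.09). Scn10a held 2.39 and 3.17 TPM in hindbrain at E13.5 and 3.36 and 6.07 TPM at E14.5, against 0.18 to 0.26 TPM in the 4 forebrain libraries of those stages. Within the 3 windows those hindbrain libraries also had the highest sums of 5 peripheral sensory neuron markers, 159 to 307 TPM against 42.1 to 63.6 TPM in forebrain, and the part of such cells in these values was not tested. Scn11a, another sensory neuron gene, stood at -0.13 ± 0.04.

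On chromosome 2, Scn3a and Scn2a lie side by side on opposite strands, and Scn1a, Scn9a and Scn7a follow. Of these genes 4 were called higher in late brain and Scn7a was not. Scn10a and Scn11a lie together on chromosome 9, and neither was called.

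**Figure D2:**
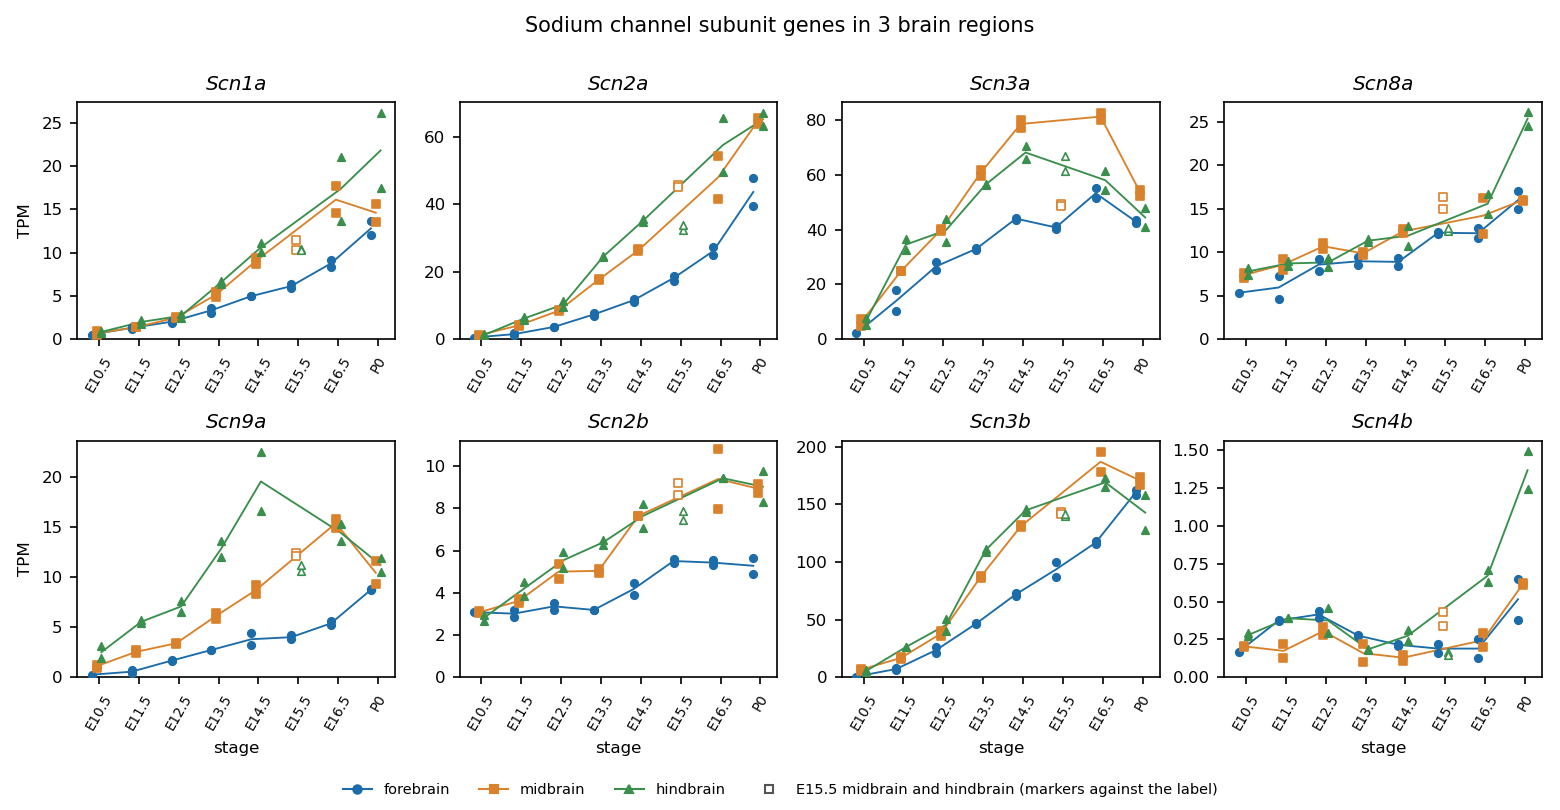
TPM of the sodium channel subunit genes against stage in forebrain, midbrain and hindbrain, in 8 panels for Scn1a, Scn2a, Scn3a, Scn8a, Scn9a, Scn2b, Scn3b and Scn4b, with 1 point per library and lines through stage means. Open symbols mark the midbrain and hindbrain E15.5 libraries; Scn2a reaches 24.8 to 66.9 TPM and Scn3b 115 to 195 TPM in late libraries, against at most 6.37 and 26.5 TPM in early ones.

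As shares of the alpha subunit TPM of a library, Scn2a made up 6.90%, 17.98% and 33.1% in the early, middle and late brain windows, and Scn1a 3.76%, 6.06% and 9.91%. Scn3a held 43.6%, 54.3% and 37.3%, and Scn8a 28.6%, 10.6% and 11.04%. These shares are descriptions of the same TPM values and were not tested on their own.

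**Figure D3:**
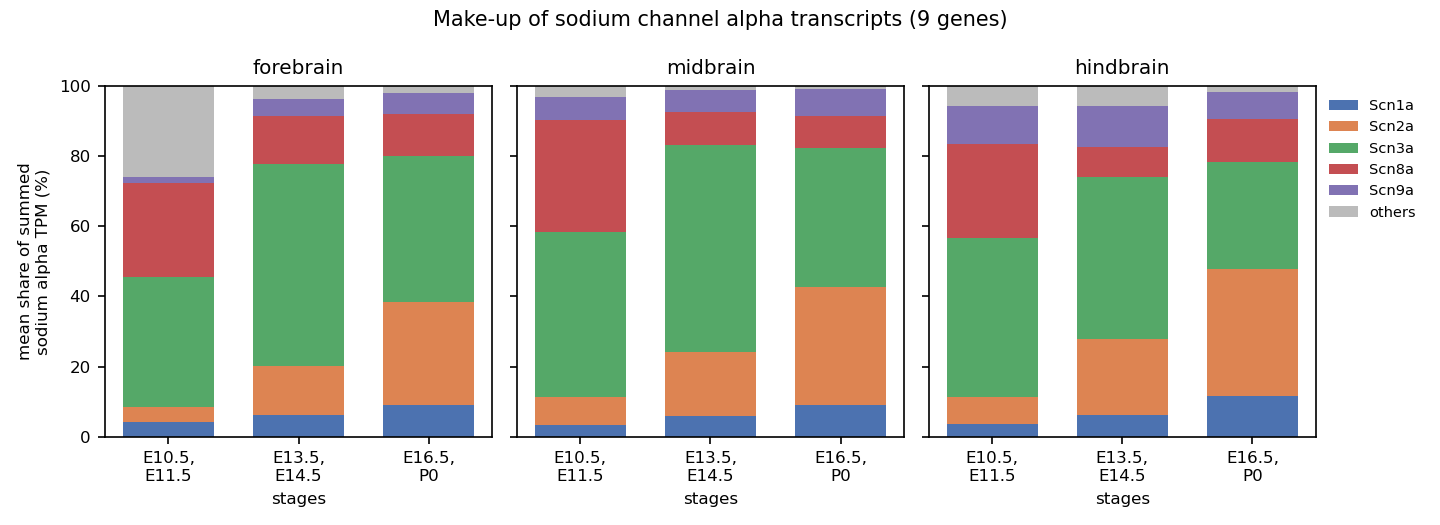
Mean share of each alpha subunit gene in the summed alpha subunit TPM (percent) as stacked bars for the early, middle and late windows, in 1 panel each for forebrain, midbrain and hindbrain, with the 4 remaining genes joined as others. Over the 3 regions Scn2a averaged 6.90%, 17.98% and 33.1% in the 3 windows, and Scn8a 28.6%, 10.6% and 11.04%.

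Among the beta subunits, which are cell adhesion proteins that bind the alpha subunit, Scn3b and Scn2b were called higher in late brain. Scn3b (ENSMUSG00000049281.11, chromosome 9, 40269217 to 40291618) was the most abundant channel gene of late brain, at 115 to 195 TPM (median 164), against 0.8 to 26.5 TPM (median 7.64) early (4.21 ± 0.05; adjusted p = 1.53e-37). The windows did not overlap. Scn2b was called at 1.02 ± 0.04, with 4.91 to 10.8 TPM late and 2.68 to 4.52 TPM early. That call rested on its margin: the change was 0.93 under median-of-ratios scaling, 0.60 under quantile normalization, 0.98 without the 4 columns of conflicting stage and 0.99 without the third midbrain E16.5 library, none of them called. Scn4b stood at 0.13 to 1.49 TPM late (0.30 ± 0.03, not called).

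Partners of sodium channels at the axon initial segment and node, a list of 17 ankyrins, adhesion proteins, fibroblast growth factor homologues and potassium channel partners, had 16 members called higher in late brain. The median of the list was 2.41. The beta-spectrin gene Sptbn4 averaged 20.8 TPM late and 0.528 TPM early (3.84 ± 0.07), the adhesion gene Cntn1 102 and 3.05 TPM (4.67 ± 0.05), and the ankyrin-G gene Ank3, which anchors the channels, 165 and 60.9 TPM (1.68 ± 0.07). The exception was Cntnap2, at 91.3 TPM late and 86.5 TPM early (0.37 ± 0.04) over the 3 regions. That mean joins unlike regions, since its forebrain change minus its hindbrain change was -2.33 ± 0.10. Late forebrain libraries held 71.1 to 108 TPM, and the early and late forebrain libraries together reached 217 TPM. In early and late hindbrain it ran from 26.5 to 84.95 TPM. Dpp10 and Dpp6, partners of Kv4 potassium channels, were called at 4.86 and 3.08. The list was chosen with earlier results of these data known and is given as a description.

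Calcium channels. The alpha1 subunit genes, which form the pore, were called higher in late brain for both L-type genes measured, all 3 of the P/Q, N and R types and 2 of 3 T-type genes. Cacna1e, of R-type channels, ran from 23.2 to 39.8 TPM (median 28.2) late and from 0.61 to 3.91 TPM (median 1.96) early (3.37 ± 0.06). Cacna1b, of the N-type channels of presynaptic terminals, ran from 22.4 to 60.97 TPM late and from 3.31 to 12.9 TPM early (2.44 ± 0.07). Cacna1a, of P/Q-type channels, ran from 15.8 to 50.6 TPM late and from 5.4 to 12.9 TPM early (1.82 ± 0.08). None of the 3 overlapped between late and early libraries.

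The L-type genes, whose channels couple activity to transcription, were called at 2.74 ± 0.05 for Cacna1d and 1.81 ± 0.05 for Cacna1c. Cacna1c held 81.6%, 62.4% and 57.9% of the L-type TPM in the early, middle and late windows, and Cacna1d the rest. Among the T types, which open near the resting voltage, Cacna1g (ENSMUSG00000020866.13, chromosome 11, 94408391 to 94474198) was among the most abundant channel genes of both early and late brain. It ran from 34.7 to 109 TPM (median 80.6) in late and from 43.5 to 61.1 TPM (median 48.4) in early libraries, with overlap, and at 0.55 ± 0.07 it was not called. Cacna1h was called at 1.28 ± 0.06 and Cacna1i, with 3.01 to 9.03 TPM late and 0.08 to 0.51 TPM early, at 2.42 ± 0.06.

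All alpha2delta and beta subunit genes measured were called. Of the alpha2delta genes, which carry the channel to the membrane, Cacna2d2 ran from 27.1 to 86.2 TPM late and from 10.9 to 18.6 TPM early (1.91 ± 0.06), Cacna2d3 stood at 2.74 ± 0.06 and Cacna2d1 at 1.93 ± 0.05. Cacnb3 (ENSMUSG00000003352.9, chromosome 15, 98630840 to 98644529) was the most abundant beta subunit gene, at 83.6 to 155 TPM (median 125) late and 20.0 to 67.9 TPM (median 46.7) early (1.41 ± 0.04). Among the 37 libraries of one of the classes into which pseudogene levels divide the series, it stood at 0.98 and was not called. Cacnb4, Cacnb1 and Cacnb2 were called at 2.4, 1.96 and 1.77.

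The gamma family includes the TARPs, which traffic AMPA-type glutamate receptors more than they act on calcium channels, and 5 of its 7 genes were called. Cacng3 ran from 6.28 to 24.7 TPM late and from 0.05 to 1.13 TPM early (3.46 ± 0.05), and Cacng2 (stargazin) from 9.30 to 34.6 TPM and from 0.16 to 3.07 TPM (3.25 ± 0.05). Cacng7 (ENSMUSG00000069806.4, chromosome 7, 3332955 to 3368221) was the most abundant channel gene of early brain, at 77.2 to 112 TPM (median 88.1), and ran from 104 to 127 TPM (median 117) late. Its change of 0.32 ± 0.04 was not called. Cacng8, its neighbour on chromosome 7, was called at 2.15 ± 0.05. Cacng4 ran from 97.4 to 177 TPM late and from 24.7 to 83.6 TPM early (1.44 ± 0.05).

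Potassium channels. Of 79 genes 56 were called higher and 2 lower in late brain. In the Kv1 to Kv3 families, which hold most delayed rectifiers, 10 of 12 genes were called. Kcnc4 (ENSMUSG00000027895.8, chromosome 3, 107438303 to 107459552), a Kv3 gene of fast-inactivating channels, ran from 2.83 to 37.5 TPM (median 18.4) in late and from 0.05 to 0.37 TPM (median 0.18) in early libraries (3.80 ± 0.06). Kcnc1, whose channels permit fast firing, ran from 11.3 to 32.4 TPM late and from 0.30 to 3.47 TPM early (3.15 ± 0.04). Kcna6 was the most abundant Kv1 gene, with medians of 27.9 TPM late and 4.61 TPM early (2.36 ± 0.05). Kcna1 and Kcna5 were not called over the 3 regions, at 0.86 ± 0.04 and 0.19 ± 0.05.

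The Kv4 channels of dendrites and their KChIP partners stood near the top of the list. Kcnd2 (ENSMUSG00000060882.5, chromosome 6, 21215503 to 21729805) ran from 12.8 to 49.5 TPM (median 38.1) in late and from 0.19 to 2.59 TPM (median 1.52) in early libraries (4.00 ± 0.05; adjusted p = 1.10e-37). Kcnip1 (chromosome 11, 33629339 to 33993152) ran from 38.3 to 109 TPM (median 89.5) late and from 2.84 to 13.7 TPM (median 5.01) early (3.63 ± 0.05). No library of either window overlapped for these genes. Kcnip4, Kcnip2 and Kcnip3 were called at 3.30, 3.13 and 2.45, and Kcnd3 at 2.62. Kcnd2 held 14.98%, 31.8% and 47.0% of the Kv4 TPM in the early, middle and late windows, while Kcnd1 held 23.9%, 6.07% and 6.65% and at 0.996 ± 0.061 stood just short of the threshold.

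Of the Kv7 genes, which give the M current, Kcnq3 ran from 11.51 to 22.03 TPM in late and from 0.28 to 7.60 TPM in early libraries, without overlap (2.61 ± 0.06), and Kcnq5 was called at 1.84 ± 0.06. Kcnq1, the cardiac and epithelial member, stayed at 0.59 to 1.09 TPM late and 0.59 to 0.93 TPM early (0.01 ± 0.06). In the Kv10 to Kv12 family 7 of 8 genes were called, led by Kcnh7 (2.34). Kcnh2, which encodes the ERG channel, was the exception, at 8.99 to 33.4 TPM (median 23.8) late and 11.6 to 29.3 TPM (median 22.4) early (0.15 ± 0.05).

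The silent Kv subunits, which form channels only in company with Kv2, had 4 of 7 genes called, led by Kcns2 (2.45) and Kcnv1 (2.28). All 3 Kv beta genes were called, led by Kcnab1 (1.49 ± 0.06). Among the Kcne single-span subunits Kcne2, a choroid plexus gene, was called higher (2.33 ± 0.17), and its late and early libraries overlapped, at 0.64 to 24.4 TPM and 0.03 to 10.1 TPM.

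The sodium-activated channel gene Kcnt1 (ENSMUSG00000058740.10, chromosome 2, 25863734 to 25918273) had the largest change of all 114 genes. It ran from 19.3 to 70.1 TPM (median 41.7) in late and from 0.42 to 2.29 TPM (median 0.95) in early libraries (4.29 ± 0.06; adjusted p = 6.20e-36). The BK channel gene Kcnma1 followed at 3.26 ± 0.05. Its beta subunit gene Kcnmb4, at 22.2 to 49.3 TPM late and 11.8 to 25.8 TPM early, was not called over the 3 regions (0.92 ± 0.06). Kcnu1, a relative known from sperm, ran from 6.76 to 10.3 TPM late and from 0.16 to 1.27 TPM early (2.60 ± 0.06), and its exons overlap no other annotated gene. Of the small-conductance genes Kcnn2 (2.57) and Kcnn3 (2.22) were called, while Kcnn1 was not (0.14 ± 0.05).

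Inward rectifiers, which hold the resting potential, had 9 of 13 genes called higher. Kcnj3, Kcnj6 and Kcnj9, subunits of channels opened by G proteins, were called at 2.93, 2.23 and 2.09, and Kcnj11, of ATP-sensitive channels, at 2.50. Kcnj10, the main inward rectifier of astrocytes, ran from 5.92 to 25.7 TPM late and from 1.19 to 2.83 TPM early (2.16 ± 0.06). Of 6 astrocyte markers 5 were called higher in the same comparison, with sums of 290 to 1222 TPM late and 101 to 147 TPM early, and their part was not tested. Among the two-pore leak channels 5 of 11 were called higher, with Kcnk9 (3.26 ± 0.08) and Kcnk3 (2.63 ± 0.05), both acid-sensitive TASK channels, ahead of Kcnk2 (2.25). Kcnk10 changed by 0.34 ± 0.04 and was not called.

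Only 2 channel genes were called lower in late brain, and both were called lower in each of the 3 regions, as were 6.58% of all tested genes. Kcnk5 (ENSMUSG00000023243.8, chromosome 14, 20140057 to 20181809), a two-pore channel known from kidney epithelium, ran from 0.62 to 1.37 TPM (median 0.79) in late and from 5.53 to 11.1 TPM (median 6.77) in early libraries (-2.16 ± 0.05; adjusted p = 7.95e-31). Kcne3, an epithelial auxiliary subunit, ran from 0.14 to 1.13 TPM (median 0.46) late and from 1.57 to 5.64 TPM (median 3.83) early (-1.62 ± 0.07). Its call in midbrain was lost with E11.5 as the sole early stage, and among the 37 libraries of the pseudogene class named above. Neither Kcnk5 nor Kcne3 overlapped between the windows, and 13.8% of all tested genes had every late library below every early one. All 5 erythroid markers were also called lower, with sums of 4.31 to 24.4 TPM late and 103 to 146 TPM early. Of 6 neural progenitor markers 5 were called lower and 1 higher, with sums of 2032 to 3206 TPM late and 1568 to 3445 TPM early. The part of these cells in the changes was not tested. Kcnk6 stood at -0.33 ± 0.04 and Kcnn4 at -0.50 ± 0.07, and neither was called.

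Promoter sequence was looked at for genes that moved most among those with a promoter window, and for some that held a searched motif. RefSeq (GRCm38.p6, the assembly also named mm10) gave windows from 250 bases before to 50 after a transcript start for 82 of the 114 genes, 118 windows in all. Kcnt1 and Scn3b, the genes with the largest increases, had no window. The lines below give 7 of them 5′ to 3′ on the gene's own strand: both Scn2a starts, Kcnd2 and Kcnc4 among the largest increases, Kcnk5 as the largest decrease, and Kcnh6 and Kcnj4 for parts of the RE1 element, the site of the repressor REST. Capitals mark searched motifs on either strand.
Scn2a, chr2:65620519-65620818, plus strand: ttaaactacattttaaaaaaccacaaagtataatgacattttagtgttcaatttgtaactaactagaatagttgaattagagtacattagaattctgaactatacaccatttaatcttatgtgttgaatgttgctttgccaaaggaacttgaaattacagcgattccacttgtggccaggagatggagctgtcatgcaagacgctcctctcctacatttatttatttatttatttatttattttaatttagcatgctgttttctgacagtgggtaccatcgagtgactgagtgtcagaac
Scn2a, chr2:65668436-65668735, plus strand: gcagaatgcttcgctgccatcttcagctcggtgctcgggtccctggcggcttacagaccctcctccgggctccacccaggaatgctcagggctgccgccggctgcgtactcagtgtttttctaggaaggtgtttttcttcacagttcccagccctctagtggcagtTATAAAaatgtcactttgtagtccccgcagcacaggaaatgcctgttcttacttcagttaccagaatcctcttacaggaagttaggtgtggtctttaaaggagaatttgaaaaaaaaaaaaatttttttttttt
Kcnd2, chr6:21215096-21215395, plus strand: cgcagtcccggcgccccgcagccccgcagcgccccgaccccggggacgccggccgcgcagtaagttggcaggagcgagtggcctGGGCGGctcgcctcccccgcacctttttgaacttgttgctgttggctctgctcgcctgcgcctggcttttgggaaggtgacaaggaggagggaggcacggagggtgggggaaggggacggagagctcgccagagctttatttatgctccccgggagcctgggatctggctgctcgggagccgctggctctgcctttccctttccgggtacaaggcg
Kcnc4, chr3:107458849-107459148, minus strand: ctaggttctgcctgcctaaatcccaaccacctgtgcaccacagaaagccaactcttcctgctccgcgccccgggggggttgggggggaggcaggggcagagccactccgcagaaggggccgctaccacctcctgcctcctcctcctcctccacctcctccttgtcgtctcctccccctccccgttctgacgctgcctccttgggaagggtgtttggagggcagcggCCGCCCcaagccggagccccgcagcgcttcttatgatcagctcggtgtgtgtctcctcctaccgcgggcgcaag
Kcnh6, chr11:106007898-106008197, plus strand: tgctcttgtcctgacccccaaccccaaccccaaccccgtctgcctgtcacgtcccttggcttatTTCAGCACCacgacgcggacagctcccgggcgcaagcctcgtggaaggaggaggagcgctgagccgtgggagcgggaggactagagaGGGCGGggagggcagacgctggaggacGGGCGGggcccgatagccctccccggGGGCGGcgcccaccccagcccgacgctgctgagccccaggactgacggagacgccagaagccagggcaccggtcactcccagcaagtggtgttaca
Kcnj4, chr15:79505192-79505491, minus strand: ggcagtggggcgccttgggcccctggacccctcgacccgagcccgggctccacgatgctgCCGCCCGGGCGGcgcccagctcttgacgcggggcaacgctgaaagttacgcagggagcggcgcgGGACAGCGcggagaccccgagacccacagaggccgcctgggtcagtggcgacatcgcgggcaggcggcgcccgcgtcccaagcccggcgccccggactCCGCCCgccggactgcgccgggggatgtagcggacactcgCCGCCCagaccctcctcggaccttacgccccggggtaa
Kcnk5, chr14:20181733-20182032, minus strand: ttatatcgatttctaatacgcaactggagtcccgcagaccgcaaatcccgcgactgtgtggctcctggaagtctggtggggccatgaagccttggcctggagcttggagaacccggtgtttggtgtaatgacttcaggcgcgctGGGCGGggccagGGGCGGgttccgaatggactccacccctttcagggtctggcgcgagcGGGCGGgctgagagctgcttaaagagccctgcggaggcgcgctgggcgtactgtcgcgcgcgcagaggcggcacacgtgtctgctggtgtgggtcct
The motifs searched on both strands were the GC box core GGGCGG, the TATA box TATAAA, and the left and right parts of RE1, TTCAGCACC and GGACAGCG, none of which overlaps another. The GC box core was in 55 of the 118 windows (46.6%) and in 35.7% of all 32851 windows in the table, and TATAAA in 6 (5.08%) and 13.6%. The left RE1 part was in 1 window, of Kcnh6 (0.85%, against 0.37% of all), and the right part in 2, of Cacnb1 and Kcnj4 (1.69%, against 1.26%). A CpG observed-to-expected ratio of at least 0.6 was found in 34.7% of the windows and in 35.8% of all. The more upstream Scn2a window held none of the motifs and 3 CpG dinucleotides, while the Kcnk5 window held 3 GC boxes. A match here is a description of letters and not a binding site or a cause.

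Of a list of 8 genes of the REST repressor complex, which silences neuronal genes in other cells, 4 were called lower in late brain and none higher by limma (median -0.997). Rest itself averaged 4.79 TPM late and 13.4 TPM early (-1.33 ± 0.04), and its cofactor gene Rcor2 44.1 and 158 TPM (-1.93 ± 0.05). In liver 7 of the 8 were called lower in the late window than at E11.5 (median -1.61, against -0.69 over all tested genes). Rest averaged 3.78 TPM there late and 12.8 TPM at E11.5 (-1.54 ± 0.09). The part of these genes in the channel gene changes was not tested. Related pore-loop channels with other symbols moved in late brain as the channel genes did, with 7 of 9 measured genes called higher (median 2.11). Among them were the sodium leak channel gene Nalcn (2.91 ± 0.04) and the genes of its partners Unc79 (2.11) and Unc80 (2.75). The lysosomal channel genes Tpcn1 (0.05) and Tpcn2 (-0.79) were not called.

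The increase was divided unequally between an earlier and a later interval, which share the middle libraries and are given side by side. From the early to the middle window 62 channel genes were called higher and 2 lower (background 11.8% and 5.7%), with a median change of 1.15 over the channel genes and 0.07 over all genes. Pseudogene levels divide the series into classes A and B. All E10.5 libraries fell in class B and all E13.5 and E14.5 libraries in class A. With class A libraries only, 52 of these 64 calls were kept (background 8.24% higher and 5.09% lower). With E11.5 as the sole early stage 52 were kept as well (background 8.28% and 5.08%). From the middle to the late window 21 were called higher and none lower by limma (background 4.69% and 1.45%), with medians of 0.54 and 0.02. At an unadjusted p below 0.05, whatever the size, 8 genes were lower in this later comparison.

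Calcium, sodium and potassium channel genes were each called more often in the earlier than in the later interval. All tested genes were as well, with 11.8% called higher in the earlier and 4.69% in the later interval. Of 22 calcium channel genes, 17 were called higher in the earlier interval and 2, Cacng3 and Cacng5, in the later one. With class A libraries only, or with E11.5 as the sole early stage, Cacna1c, Cacna1h, Cacna2d1, Cacnb3 and Cacng4 lost their earlier call. Of the 13 sodium channel genes 6 were called in the earlier and 3 in the later interval, and of the 79 potassium channel genes 39 were higher and 2 lower in the earlier and 16 higher in the later one. Scn3a (2.30 and -0.01), Cacnb1 (1.66 and 0.30) and Kcnh7 (2.20 and 0.15) had nearly their whole change before the middle window.

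In the later interval Kcnc4 (1.81), Kcnip2 (1.59), Kcnt1 (1.55), Scn2a (1.38) and Kcnd2 (1.34) were called higher, as they were in the earlier one. Kcnq5 (0.46 and then 1.39), Kcns1 (0.31 and 1.38) and Kcnk1 (0.37 and 1.36) were called in the later interval and not in the earlier one, and for these 3 no middle library reached the late range. Kcnj10 was called at 1.04 ± 0.06 and stood at 0.98, not called, without the third midbrain E16.5 library. Differences between the 2 intervals of a gene were not tested.

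**Figure D4:**
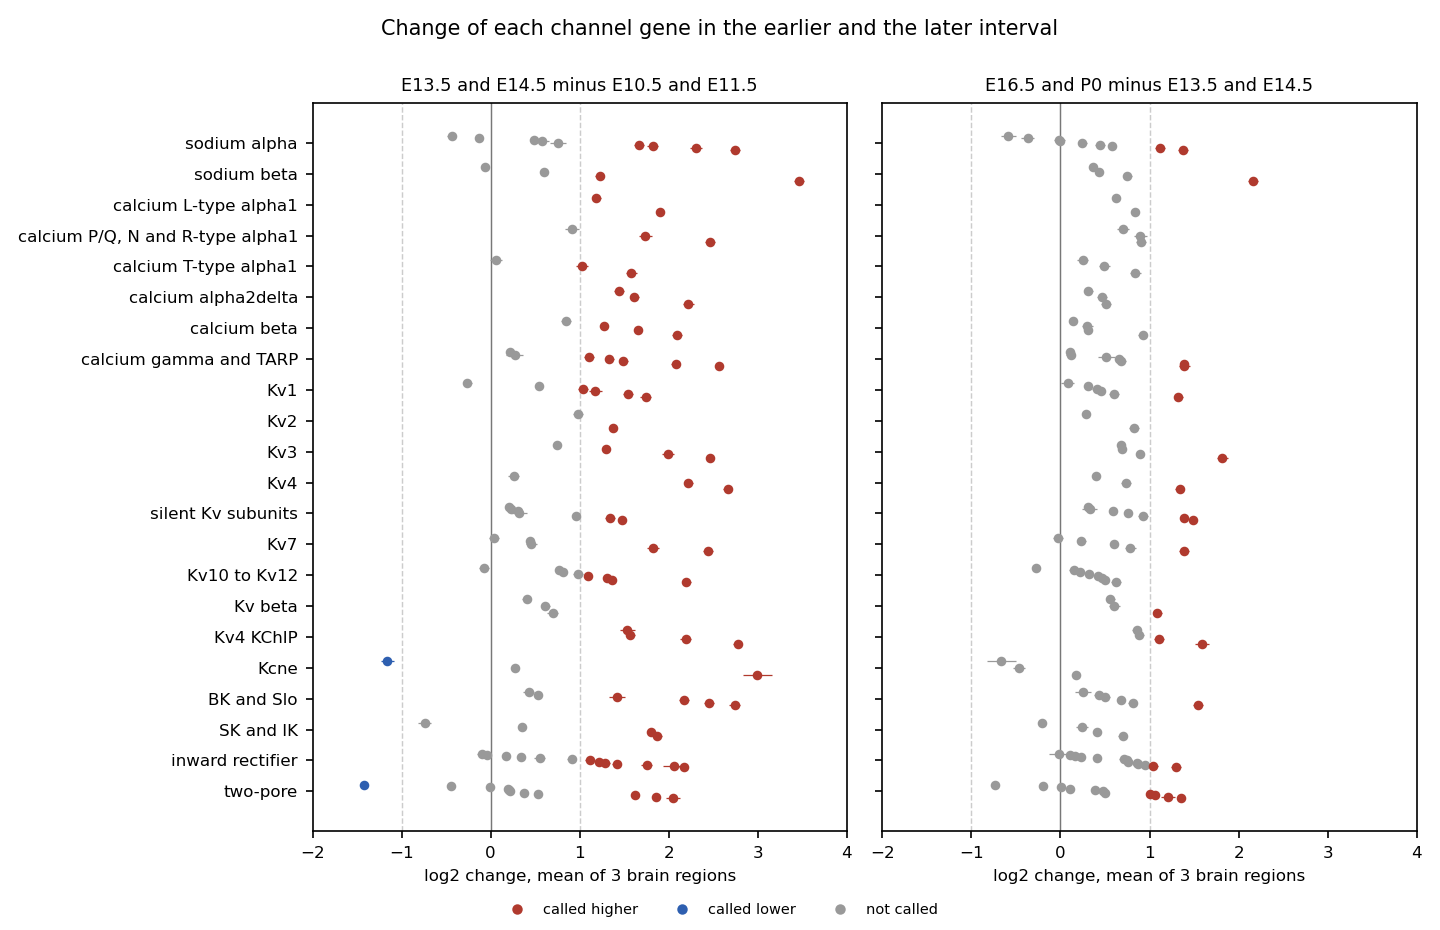
Log2 change of each of the 114 channel genes, by subunit family, from the early to the middle window (left) and from the middle to the late window (right), averaged over 3 brain regions, with bars of 1 SE, dashed lines at 1 and -1, and colours for genes called higher, called lower and not called. Scn3b lies farthest right in the left panel at 3.46, while Kcnk5 (-1.43) and Kcne3 (-1.16) are the genes called lower on the left.

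By stage, the highest mean among the compared stages was at P0 for 82 of the 114 genes in forebrain (71.9%, against 34.6% of all tested genes), 68 in midbrain (59.6%, against 26%) and 67 in hindbrain (58.8%, against 25.4%). In liver it was at E11.5 for 86 genes (75.4%, against 73.5%). In midbrain and hindbrain the 4 columns of conflicting stage bear on the split between E16.5 and P0. In hindbrain, Scn3a, Scn9a, Kcnh7, Kcnh8, Kcnmb2 and Kcnj2 were among 12 genes highest at E14.5, a share (10.5%) near that of all tested genes (10.2%).

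Between late brain regions, 3 channel genes were higher (2.63%, background 1.37%) and 12 lower (10.5%, background 4.04%) in forebrain than in hindbrain. Quantile normalization gave 4 higher and 8 lower, and a pseudocount of 0.1 gave 5 higher and 22 lower (background 2.24% and 7.33%). Against midbrain forebrain had 4 higher (3.51%, background 1.98%) and 7 lower (6.14%, background 2.36%), or 8 and 14 with a pseudocount of 0.1 (background 3.54% and 4.57%). Midbrain had none higher and 5 lower than hindbrain by limma (background 0.515% and 1.51%), with 28 genes higher at an unadjusted p below 0.05 and 3 called higher with a pseudocount of 0.1. The 4 higher genes of forebrain against midbrain became 2 without the second forebrain P0 library or without the second midbrain P0 library. The regions also crossed the pseudogene classes. Both midbrain P0 libraries and the second hindbrain P0 library were of class B, and the other late brain libraries of class A. With class A libraries only, late midbrain was E16.5 alone. Then 7 of the 11 calls between forebrain and midbrain were kept, and those of Kcnd2, Kcne2, Kcnip4 and Kcnj12 were lost.

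Kcnj4, Kcnh3 and Kcng1 were the genes called higher in forebrain than in hindbrain. Kcnj4, an inward rectifier known from forebrain neurons, held 2.23, 1.84, 4.97 and 9.33 TPM in the forebrain, 0.16, 0.30, 1.36 and 1.13 TPM in the midbrain, and 0.14, 0.11, 0.36 and 0.22 TPM in the hindbrain libraries of the late window (2.02 ± 0.08 over hindbrain, 1.56 ± 0.08 over midbrain). Every forebrain library lay above every other. Kcnh3, a Kv12 gene of forebrain neurons, held 5.83, 4.58, 6.09 and 10.8 TPM in forebrain, 0.28 to 2.05 TPM in midbrain and 0.98 to 1.55 TPM in hindbrain (1.75 ± 0.10 over hindbrain, 1.88 ± 0.10 over midbrain), again without overlap. Kcng1, a silent subunit gene, held 8.14, 6.70, 3.52 and 9.45 TPM in forebrain and 0.91 to 1.25 TPM in hindbrain (1.86 ± 0.15). Its midbrain libraries, at 1.54 to 3.68 TPM, overlapped the forebrain range (1.04 ± 0.15), and that call was lost without the first forebrain E16.5 (0.98), second forebrain P0 (0.74), first midbrain E16.5 (0.89) or second midbrain P0 library (0.99).

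The genes lower in forebrain were led by Kcnk9 (ENSMUSG00000036760.6, chromosome 15, 72501089 to 72546340). It held 2.44, 2.52, 8.11 and 8.35 TPM in the forebrain, 8.99, 17.5, 19.9 and 19.0 TPM in the midbrain and 20.8, 30.7, 40.7 and 43.9 TPM in the hindbrain libraries. The 3 regions did not overlap, and each step was called: -2.57 ± 0.13 for forebrain over hindbrain, -1.56 ± 0.13 for forebrain over midbrain and -1.02 ± 0.13 for midbrain over hindbrain. The last of these stood at -0.96, not called, under median-of-ratios scaling. Kcnc4 held 3.43, 2.83, 13.2 and 9.74 TPM in forebrain and 15.8, 21, 30.5 and 37.5 TPM in hindbrain (-1.86 ± 0.11), and its midbrain libraries, at 12.6 to 35.4 TPM, overlapped forebrain. Kcnd2 held 13.4, 12.8, 26.3 and 27.1 TPM in forebrain and 34.9 to 49.0 TPM in hindbrain (-1.14 ± 0.08).

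Other genes lower in forebrain than in hindbrain included Kcnj16 (-1.99), Kcnk3 (-1.14), Kcnj10 (-1.13), Cacng2 (-1.07), Kcna2 (-1.06), Kcnip4 (-1.05) and Kcnip1 (-1.02). Several of these calls lay close to the threshold of 1. Without the 4 columns of conflicting stage, Kcnk3 (-0.99), Kcna2 (-0.99), Kcnip4 (-0.98) and Kcnip1 (-0.996) were not called. Kcna2 and Kcnip4 were also not called under median-of-ratios scaling (-0.98 and -0.99) or quantile normalization (-0.84 and -0.997), Kcnk3 under quantile normalization (-0.92), and Kcnip1 under median-of-ratios scaling (-0.98). Kcnip1 also lost its call without the second forebrain P0 library (-0.92) or the third hindbrain E16.5 library (-0.98). Against midbrain, Kcnmb2 (-1.10), Kcnd2 (-1.10), Cacnb2 (-1.08), Kcnj12 (-1.03) and Kcnip4 (-1.01) were lower in forebrain as well. Without the 4 columns of conflicting stage, Kcnmb2 was the one of these 5 still called, and Kcnd2 stood at -0.98, Cacnb2 at -0.99, Kcnj12 at -0.94 and Kcnip4 at -0.98. Kcnd2 stood at -0.97, not called, without the third midbrain E16.5 library.

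Markers of other cells moved with some of these genes. Kcnj16 held 0.49, 0.45, 1.74 and 2.19 TPM in the forebrain and 4.43, 6.16, 11.2 and 8.95 TPM in the hindbrain libraries, and with Kcnj10 it is known from astrocytes. The sum of 6 astrocyte markers was 316 to 485 TPM in late forebrain, 290 to 540 in midbrain and 624 to 1222 in hindbrain, with 4 of 6 called lower in forebrain than in hindbrain. Midbrain was lower than hindbrain in Kcne2 (-2.05 ± 0.28) and Kcnj13 (-1.24 ± 0.19), both known from choroid plexus. Kcnj13 stood at -0.92, not called, without the 4 columns of conflicting stage. Kcne2 held 12.96, 5.03, 2.15 and 0.64 TPM in the midbrain and 18.8, 24.4, 15.3 and 14.48 TPM in the hindbrain libraries. The sum of 5 choroid plexus markers was 786 to 2401 TPM in forebrain, 87.8 to 1357 in midbrain and 1640 to 2769 in hindbrain, with 4 of 5 called lower in midbrain than in hindbrain. The part of astrocytes and choroid plexus in these differences was not tested.

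Kcna1, the Kv1 subunit of axons, was the remaining regional gene. It held 0.65, 1.07, 1.26 and 1.07 TPM in midbrain and 2.45, 2.50, 5 and 4.32 TPM in hindbrain, without overlap (-1.15 ± 0.07), and stood at -0.89, not called, under quantile normalization. Its change from early to late was called in forebrain (1.18) and hindbrain (1.42), and stood at -0.01 in midbrain.

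**Figure D5:**
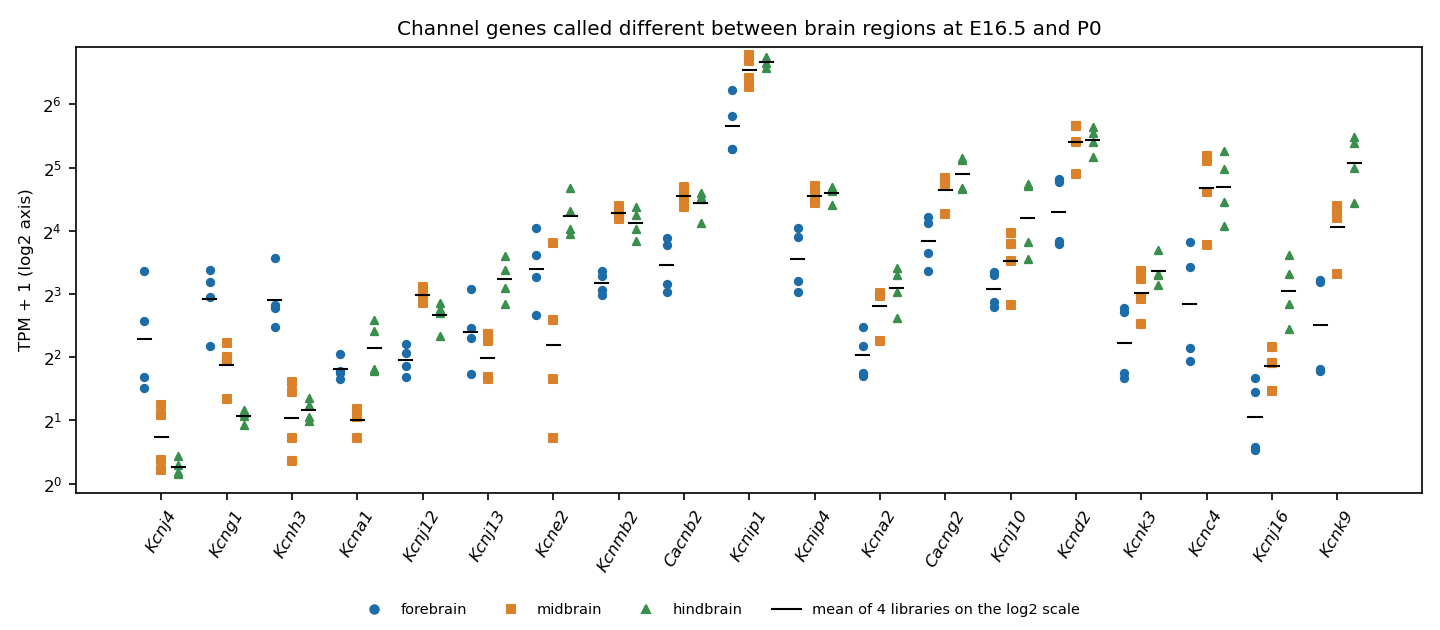
TPM + 1 on a log2 axis in late forebrain, midbrain and hindbrain libraries for channel genes called different between a pair of regions, with 1 point per library, 4 per region, and bars at the mean on the log2 scale. Genes are ordered from Kcnj4, highest in forebrain over hindbrain (2.02), to Kcnk9, lowest (-2.57).

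The change from early to late itself differed between forebrain and hindbrain in 14 genes with a larger and 7 with a smaller change in forebrain (background 3.61% and 2.63%). Larger in forebrain were Kcng1 (1.87 ± 0.22), Kcnj4 (1.85 ± 0.13), Kcnh3 (1.80 ± 0.14), Kcnq3 (1.68 ± 0.16), Kcnmb2 (1.64 ± 0.23), Scn3b (1.60 ± 0.13) and 8 more. Smaller were Kcnk9 (-1.92 ± 0.20), Kcnj16 (-1.83 ± 0.15), Kcnc4 (-1.64 ± 0.16), Kcnd2 (-1.53 ± 0.12), Scn11a (-1.37), Cacnb2 (-1.31) and Kcnj10 (-1.13). Some of the larger changes lay in the early level, since Scn3b held 0.80, 6.78 and 7.89 TPM in early forebrain and 6.52, 4.56, 26.5 and 26.2 TPM in early hindbrain, against overlapping late levels of 115 to 162 TPM and 128 to 173 TPM. Calls among the larger changes depended on the single forebrain E10.5 library: without it 8 genes had a larger change, and Scn3b stood at 0.50, Cacnb3 at 0.53 and Scn3a at 0.08, none called. The early neuron marker sums were 387 to 1187 TPM in forebrain and 1076 to 2234 TPM in hindbrain, and their part was not tested.

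Liver, where the neuron markers are near 0, gave a tissue outside the brain. In the late window brain exceeded liver in 95 channel genes and was below it in 5 by the same rule (background 49.9% and 11.4%). The choice of members bears on this direction, since 113 of the 114 reached 1 TPM in 2 brain libraries of any stage and 33 in 2 liver libraries, and the counts are given as a description. The all-gene median of this comparison was 1.0, and it moved to 0.01 under median-of-ratios scaling and to 0.02 under quantile normalization, where 91 and 86 channel genes were higher and 6 lower in each. Scn3b (6.97 ± 0.07), Cacng4 (6.79), Cacng7 (6.36) and Cacnb3 (6.06) were among the genes that differed most. The channel genes that reached 1 TPM in 2 late liver libraries numbered 13.

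The 5 genes higher in liver were all potassium channel genes. Kcnn4 (ENSMUSG00000054342.7, chromosome 7, 24370263 to 24386690), the intermediate-conductance channel of red cells and lymphocytes, ran from 0.33 to 1.10 TPM (median 0.545) in the 12 late brain libraries and held 45.5, 35.2, 16.4 and 13.95 TPM in the 4 liver libraries of E16.5 and P0 (-4.01 ± 0.10; adjusted p = 1.47e-29). Kcnk16 (-2.19), Kcnk6 (-1.27), Kcne3 (-1.25) and Kcnk5 (-1.12) followed. The 5 erythroid markers summed to 4.31 to 24.4 TPM in late brain and 1040 to 3576 TPM in late liver, and their part was not tested.

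Within liver, 1 channel gene was called higher in the late window than at E11.5 and 19 lower (background 6.26% and 36.3%). The median change was -0.17 over the channel genes and -0.69 over all genes. Of the 114 genes 28 reached 1 TPM in both E11.5 liver libraries. On the log2(TPM + 1) scale a gene below 1 TPM in both could not be called lower. The count and the median therefore do not show that channel genes fell less than other genes. The all-gene median moved to -0.01 under median-of-ratios scaling and to -0.14 under quantile normalization, where 3 channel genes were higher and 10 or 12 lower. With a pseudocount of 0.1, 5 channel genes were higher and 55 lower (background 8.42% and 49.3%). Kcnk16 (ENSMUSG00000023387.7, chromosome 14, 20261376 to 20269199), a two-pore channel known from pancreas, was the gene called higher, with 7.02, 6.63, 1.85 and 1.63 TPM late and 0.86 and 0.85 TPM at E11.5 (1.32 ± 0.06). It climbed through 1.56 and 1.46 TPM at E12.5, 2.57 and 2.93 at E13.5, 4.86 and 4.13 at E14.5 and 5.4 and 6.5 at E15.5. Its brain libraries held at most 0.11 TPM in the 3 windows.

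Cacnb3 led the genes lower in late liver. It held 0.71, 0.65, 0.78 and 0.65 TPM in the late libraries and 13.1 and 14.1 TPM at E11.5 (-3.10 ± 0.08). Cacna1g held 3.15, 2.79, 0.62 and 0.18 TPM late and 11.9 and 11.4 TPM at E11.5 (-2.43 ± 0.14), and Cacng7 0.40, 0.43, 0.37 and 0.42 TPM late and 6.87 and 6.17 TPM at E11.5 (-2.42 ± 0.08). Kcnh2 (-2.09) and Cacna1h (-2.05) followed. Of the neuron markers 1 of 6 was called lower in the same comparison, with sums of 5.82 to 7.79 TPM late and 12.54 to 12.61 TPM at E11.5. Snap25, Rbfox3 and Syt1 were below 1 TPM in both E11.5 libraries, so these markers could not be called lower. Kcnn4 was called lower as well (-1.04 ± 0.15), after 68.7 and 72.3 TPM at E12.5, and stood at 0.07, not called, under median-of-ratios scaling.

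Some values may include reads of overlapping genes. Exons of 37 of the 114 genes share bases with exons of another gene, in most cases on the opposite strand. The largest overlaps by share were Kcnj13, with 49.1% of its exon bases shared with Gigyf2 on the opposite strand, Kcna6 with Gm26673 (39.6%) and Kcnj3 with Gm26794 (31.1%). Kcnk4, called at 1.26 ± 0.04, shares 13.2% of its exon bases with Catsperz on the same strand. The library kit was stranded, and how the counting used the strand is not given in the sources used here. The genes are also long, with a median span of 57.8 kb against 23.9 kb for all tested protein-coding genes.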

How the data were processed

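RNA-seq values of 61 libraries were taken as TPM deposited by the authors in tables of 43346 genes; STAR 2.4.0k, RSEM 1.2.23 and mm10 are named in the submitters' processing notes, without their roles. The sources used here give neither the gene annotation nor the treatment of reads shared by paralogs, and the depth is unknown. Symbols came from GENCODE M21. The 18655 genes with at least 1 TPM in 2 libraries were fitted with limma 3.58.1 in R 4.3.3 on log2(TPM + 1), with a mean per tissue and stage, a mean-variance trend and 30 residual degrees of freedom, and p-values were adjusted by Benjamini-Hochberg over all of them in each of 12 comparisons. Genes were named in the text by role, size of change and call. The members, lists and windows were chosen with earlier results of these data known. A principal component of 972 pseudogenes divided the libraries into class A (37) and class B (24). Other pseudocounts, filters, scalings, left-out libraries and a replicate block were tried, and the fit was tested on simulated data. Results for some members are not reported here.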

Additional observations from a re-analysis of the deposited data

Results flagged for a closer look

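In all, 14 channel genes had a larger and 7 a smaller change from early to late in forebrain than in hindbrain. This was a test of the difference itself (limma, forebrain change minus hindbrain change). The 8 given here are the most extreme in each direction, and all are potassium channel genes. The difference was 1.87 for Kcng1, 1.85 for Kcnj4, 1.80 for Kcnh3 and 1.68 for Kcnq3, with the larger change in forebrain. It was -1.92 for Kcnk9, -1.83 for Kcnj16, -1.64 for Kcnc4 and -1.53 for Kcnd2, with the larger change in hindbrain. Kcnq3 held 0.28, 0.79 and 1.78 TPM in early forebrain and 2.39, 1.73, 7.42 and 7.60 TPM in early hindbrain libraries. With a pseudocount of 0.1 the Kcnk9 difference was -0.92 and not called.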

How the results depend on the processing

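Under the alternatives run, 2 called channel genes changed sign: Kcnn4 between late and E11.5 liver under median-of-ratios scaling (0.07, against -1.04) and Kcnj8 between brain and liver under quantile normalization (-0.07, against 1.27). With a pseudocount of 0.1, 5 genes were lower in late forebrain, 5 higher and 55 lower in late liver, and 3 lower in the later brain interval. Under that pseudocount forebrain had 8 genes higher and 14 lower than midbrain and 5 higher and 22 lower than hindbrain, midbrain had 3 higher than hindbrain, and 27 genes had a larger change in forebrain. Quantile normalization gave 5 genes lower in late forebrain and, in late liver, 3 higher and 12 lower; median-of-ratios scaling gave 3 and 10 in liver. The next alternatives were added after seeing the data. With class A libraries only, or with E11.5 as the sole early stage, 1 gene was lower in late midbrain and 1 in the earlier brain interval. Kcne3 was the gene that lost its call in both. Class A alone gave 8 genes lower in midbrain than in hindbrain. Leaving out 1 library at a time gave 2 to 5 genes higher in forebrain than in midbrain and 8 to 15 with a larger change in forebrain than in hindbrain. Leaving out the 4 columns of conflicting stage left 4 genes lower in forebrain than in midbrain. Replicate numbers were not used to pair the libraries in the main fit. The correlation of deviations ran from -0.63 to 0.32 over 325 pairs of groups, with a median of 0.003 and 27 pairs over 0.1. These values do not exclude pairing or a batch shared by some libraries. A replicate block, fitted without those 4 columns, left 4 genes lower in forebrain than in midbrain and kept 83 higher and 2 lower between late and early brain. The unknown depth limits what can be said of genes below about 1 TPM.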
